A study of Mus musculus with 12 samples.

Results

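Age was compared within one genotype: Pilrb1/2 knockout retina at 12 months against the same genotype 28 days after birth (P28), with 3 libraries at each age. These 6 of the 12 libraries of the study were read across all genes with a value of at least 1 CPM (a read count scaled to library size) in 3 or more of the 12 libraries, which left 16486 of 53028 genes. The other 6 libraries, 3 at P28 and 3 at 12 months, came from Pilrb1/2 wild-type retina and serve to show where the knockout differs. They were also part of the same fit, so the spread behind the errors and p-values was estimated from all 12 libraries. The background was C57BL/6J. The deletion was made by CRISPR editing of zygotes and passed through the germline in several crosses to C57BL/6J, so it is not limited to a cell type, and both knockout groups carry it. The series text names Pilra along with Pilrb1/2 as deleted, whereas the sample labels name Pilrb1/2 alone. RNA was poly(A)-selected from whole retina, and no label states that each library is a different animal. The p-values cover the spread among the libraries, which may be technical.

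Pilra and Pilrb encode paired immunoglobulin-like type 2 receptors, an inhibitory and an activating form, found mainly on myeloid cells. At P28 a mouse retina has its full set of neurons and a working visual response, but synapses, vessels and matrix are still maturing. Over the following months retinas of laboratory mice are known for a slow rise of interferon and antigen presentation genes, a gradual loss of some neurons and remodelling of basement membranes.

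The 6 knockout libraries held 14.7 to 22 M reads each, and 3 reads corresponded to 0.132 to 0.192 CPM, a floor that covers counting error only. The tissue label matched its markers: the 28 rod phototransduction genes together gave 42310 to 51050 CPM in every knockout library. Xist, the RNA of the inactive X chromosome, was above 100 CPM in 2 of the 3 P28 knockout libraries (numbers 2 and 3) and in 0 of the 3 12-month knockout libraries, so sex, which the labels do not give, moved with age. P28 knockout library 2 stood apart. Its 25 lens genes summed to 6411 CPM, against 172 and 55.3 CPM in the other P28 knockout libraries and 58.0, 986 and 26.3 CPM at 12 months, and for many genes it lay between the ages. P28 knockout library 3 stood apart in base composition: its genes of low GC content exceeded those of high GC content by 0.449 on the log2 scale, against -0.104 and -0.226 in the other P28 knockout libraries and 0.684, 1.16 and 0.423 at 12 months. The age change also followed base composition. In 10 equal groups of genes by GC content, the lowest had a median log2 fold change of 0.31 and the highest one of -0.42, whereas in wild type the slope ran the other way. Lists are therefore also counted after a smooth trend with GC content and length was removed from each library ("trend removed"). The part of sex, lens tissue and base composition in the results was not tested beyond the values given.

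The targeted genes were read first. Pilrb2 was listed at 0 in all 6 knockout libraries, and Pilrb1 at 0 in 5 and at 0.052 CPM, about 1 read, in 12-month knockout library 2. Both were as low in wild type, so they do not check the labels. Pilra was at 0.441, 1.16 and 0.819 CPM at P28 and at 0.0556, 0.309 and 0.293 CPM at 12 months. The 2 ages did not overlap, but all values were low and Pilra fell below the expression filter, so it was not tested.

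Between P28 and 12 months 2198 genes rose in knockout retina (13.3% of the genes tested) and 2285 fell (13.9%), together 27.2%, at an adjusted p under 0.05 (limma on log2(CPM + 1), Benjamini-Hochberg adjustment over all genes tested). Most changes were small: 239 of the rises and 259 of the falls exceeded 1 on the log2 scale. The median log2 fold change of all tested genes was -0.04. In 4125 of the called genes the libraries of the 2 ages did not overlap, and over all tested genes this held for 36%. A total of 2121 genes (47.3% of the calls) were called in every fit that left out 1 knockout library. With the trend removed 1873 genes rose (11.5%) and 1583 fell (9.73%), and 2518 of the 4483 calls (56.2%) were still made in the same direction. With sex as a term in the fit 1490 rose and 1575 fell. Fitted on the 6 knockout libraries alone, 836 rose and 733 fell.

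The largest rise with separate libraries was in Hdc (ENSMUSG00000027360, GRCm38 chromosome 2, 126593667 to 126619299), which encodes histidine decarboxylase, the enzyme that makes histamine. Its level was 2.44, 10.7 and 1.33 CPM at P28 and 59.5, 65.3 and 76.4 CPM at 12 months. The log2 fold change was 3.90 ± 0.42 (limma standard error, as for every ± on this scale; n = 3 libraries per age; limma adjusted p = 7.9e-05). All 3 old libraries lay far above all 3 young ones, of which library 2 was the highest. Glb1l3 (ENSMUSG00000031966, chromosome 9, 26817953 to 26860890), a gene of the beta-galactosidase family, went from 23.6, 16.02 and 25.1 CPM to 220, 210 and 235 CPM. Its rise of 3.33 ± 0.13 had the smallest error of the 4 largest rises (limma adjusted p = 2.3e-08). Bst1, an ectoenzyme related to CD38, was at 1.66, 6.72 and 1.46 CPM at P28 and at 31.5, 31.9 and 29.3 CPM at 12 months. Sgk1, a kinase induced by glucocorticoids, went from 49.5, 181 and 45.0 CPM to 449, 456 and 491 CPM. In Hdc, Bst1 and Sgk1 the same P28 library, number 2, was several times above the other two and still clearly below the old libraries.

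Other genes among the 15 largest rises were Col4a3 (2.99), a chain of basement membrane collagen, the muscle LIM protein gene Csrp3 (2.34), Fndc1 (2.33) and the endocytic lectin receptor gene Ly75 (2.26). The mitotic kinesin gene Kif4 (2.24), the mitochondrial gene mt-Nd3 (2.18), the fatty acid and scavenger receptor gene Cd36 (2.16) and the histone gene H2aw (2.05) were also among them, each value being a log2 fold change. Cd36 was at 2.15, 3.57 and 1.84 CPM at P28 and at 14.0, 14.2 and 14.9 CPM at 12 months. All 15 stayed called with the trend removed, with the sex term and without any 1 knockout library. In wild type 12 of the 15 were called for age as well, the exceptions being Sgk1 (1.38, adjusted p = 0.053), Kif4 (0.36, adjusted p = 0.65) and mt-Nd3 (0.38, adjusted p = 0.24; limma in each case).

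**Figure D1:**
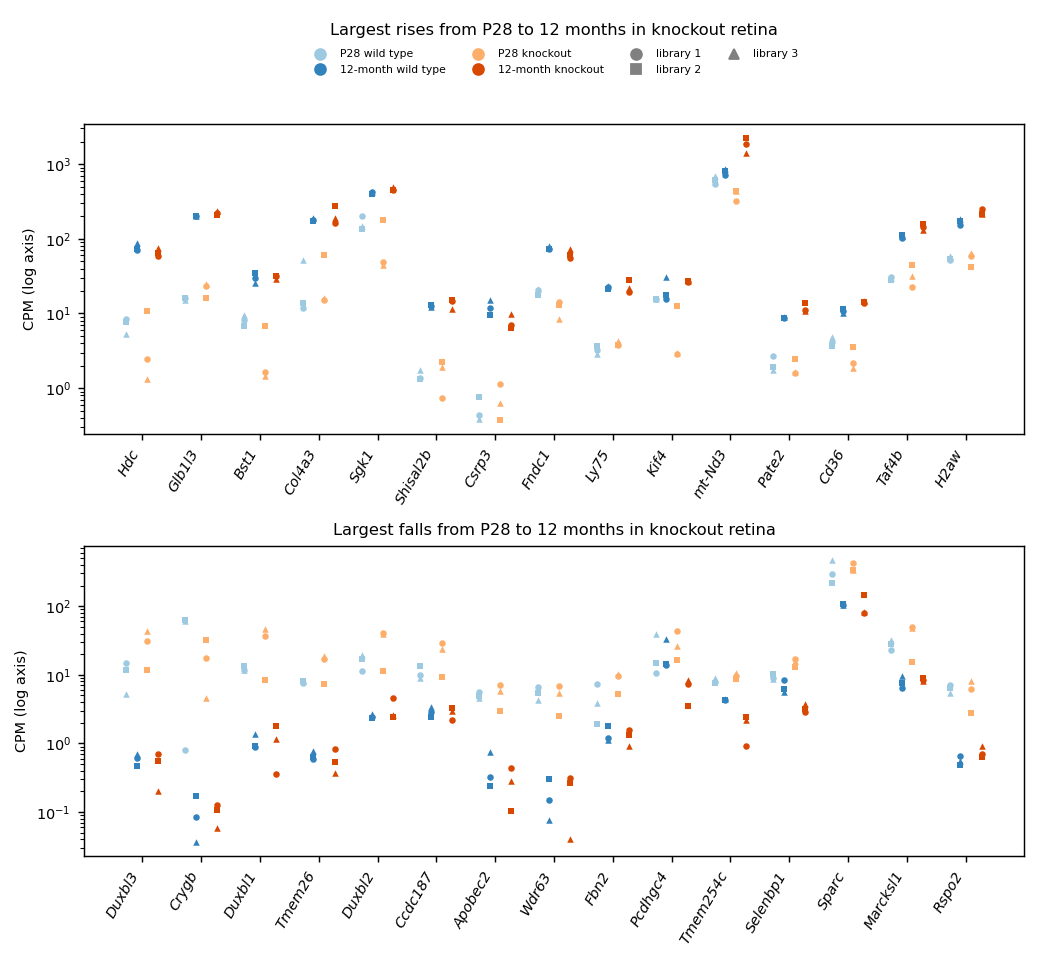
Level in CPM (log axis) of the 15 largest rises (upper panel) and the 15 largest falls (lower panel) with age in knockout retina, in each of the 12 libraries. Colours give the group and shapes the library number. The 12-month knockout points of Hdc lie between 59.5 and 76.4 CPM and its P28 knockout points between 1.33 and 10.7 CPM, and in Duxbl3 the order is reversed.

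The largest falls included 3 near-identical homeobox genes of the Duxbl family, whose reads cannot be told apart with certainty. Duxbl3 (ENSMUSG00000072672, chromosome 14, 26257962 to 26269436) was at 31.6, 11.7 and 42.9 CPM at P28 and at 0.704, 0.555 and 0.204 CPM at 12 months (log2 fold change -4.16 ± 0.40, limma adjusted p = 3.5e-05). Duxbl1 fell by 3.68 and Duxbl2 by 2.75 on the same scale. Tmem26, a membrane protein gene, was at 17.1, 7.39 and 18.6 CPM at P28 and at 0.814, 0.542 and 0.368 CPM at 12 months (-3.20 ± 0.26, limma adjusted p = 9.9e-06). Here P28 library 2 was the lowest of the young libraries, so it again lay toward the old ones.

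Sparc, a matrix glycoprotein that binds collagen, was at 420, 343 and 342 CPM at P28 and at 80.4, 147 and 82.7 CPM at 12 months (-1.88 ± 0.26, limma adjusted p = 0.00046). Marcksl1, a substrate of protein kinase C that is abundant in growing neurites, went from 49.1, 15.2 and 47.8 CPM to 8.28, 8.85 and 8.01 CPM. Rspo2, a secreted activator of Wnt signalling, went from 6.17, 2.77 and 8.01 CPM to 0.702, 0.627 and 0.925 CPM. Selenbp1, a selenium-binding protein gene, went from 17.0, 12.9 and 15.99 CPM to 2.88, 3.12 and 3.77 CPM. The lens crystallin gene Crygb was also among the falls, at 17.7, 32.0 and 4.62 CPM and then at or below 0.126 CPM, under the floor. Crygb was lost with the sex term (limma adjusted p = 0.065) and in 3 of the 6 fits without 1 knockout library. The other 14 falls were called in all of these fits, and all 15 were called with the trend removed. Of the 15, 12 were called in wild type too.

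Among genes induced by interferon there were rises and no falls. These genes carry antiviral proteins, sensors of foreign RNA and the factors that drive them, and many are switched on through a short promoter element, the interferon-stimulated response element, that binds interferon-activated transcription factors. Of 28 tested members of the list 16 rose and 0 fell, with a median log2 fold change of 0.59 against -0.04 for all genes. With the trend removed the count was again 16 rises and 0 falls (median 0.64), and with the sex term it was 14 and 0.

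The core of that element, GAAA repeated after a gap of any 2 bases and read on either strand, was searched in the 250 bases before each start site in RefSeq promoters of GRCm38.p6. It was present in 2.98% of 32851 promoters, in 11 of the 22 tested members that had a promoter there and in 9 of the 13 risen ones among them: Ifit1, Ifit3, Ifit3b, Rsad2, Gbp2, Gbp3, Gbp7, Igtp and Trim30a. It was not in this window of Ifih1, Irf7, Irf9 and Oasl2. A match is a description of the letters, not a bound site. The following 80-base stretches are shown because they carry the match, in capitals, in 4 of the risen genes, each 5′ to 3′ on the gene's own strand. They lie at chr19:34640755-34640834 (plus strand), chr12:26456523-26456602 (minus), chr3:142620574-142620653 (plus) and chr11:58199476-58199555 (plus).
Ifit1: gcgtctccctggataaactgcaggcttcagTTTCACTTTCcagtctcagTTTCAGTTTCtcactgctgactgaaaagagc
Rsad2: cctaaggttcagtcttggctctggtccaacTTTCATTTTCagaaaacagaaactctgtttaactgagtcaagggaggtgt
Gbp2: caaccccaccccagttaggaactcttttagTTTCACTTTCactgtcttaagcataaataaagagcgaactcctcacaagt
Igtp: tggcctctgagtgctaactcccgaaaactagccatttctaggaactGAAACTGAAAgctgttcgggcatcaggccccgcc

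Ifit1, whose promoter stretch holds 2 matches and whose product binds viral RNA, was at 1.41, 1.89 and 1.39 CPM at P28 and at 7.73, 10.2 and 8.62 CPM at 12 months (log2 fold change 1.94 ± 0.17, limma adjusted p = 1.5e-05). Rsad2, the antiviral enzyme viperin, was at 0.719, 0.948 and 0.717 CPM and then at 3.58, 3.13 and 3.74 CPM (1.32 ± 0.16, limma adjusted p = 0.00016). Gbp2, an interferon-induced GTPase, went from 1.68, 3.34 and 2.52 CPM to 7.02, 8.93 and 7.64 CPM. The ages did not overlap in any of these 3 genes. Ifi27 (1.42), Trim30a (1.15), Ifih1 (0.79), Usp18 (0.75), Irf7 (0.59) and Irf9 (0.57) rose too. Ifit3 and Ifit3b (0.84 each) are near-identical copies with identical promoter stretches, so their reads cannot be assigned with certainty. In wild type 9 of the 28 rose and 0 fell, and in 0 members was the difference in age change between genotypes called (0.176% of all genes were).

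Antigen presentation genes likewise had rises and no falls. Of 16 tested genes of the major histocompatibility complex and its loading machinery 6 rose and 0 fell (median 0.39), against 13.3% rises among all genes. With the trend removed 11 rose, and with the sex term 4 did. H2-K1, a class I heavy chain, was at 5.61, 10.9 and 3.71 CPM at P28 and at 14.6, 18.8 and 15.03 CPM at 12 months. B2m, the light chain of class I molecules, went from 21.1, 19.8 and 19.7 CPM to 37.1, 82.5 and 36.8 CPM (1.22 ± 0.26, limma adjusted p = 0.0062), with 12-month library 2 far above the rest. H2-Q4 (0.98), H2-Q7 (0.68), H2-Q6 (0.57) and the peptide-loading factor gene Tapbp (0.31) were the other rises, and the H2 genes share reads with one another. In wild type 7 of the 16 rose and 0 fell, with a median of 0.68, above that in knockout. In 0 members was the difference in age change between genotypes called.

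Microglial genes were called no more often than genes as a whole. Of 20 tested markers of microglia and macrophages 2 rose, Siglech (0.75) and the lysozyme gene Lyz2 (1.15), and 2 fell, the fractalkine receptor gene Cx3cr1 (-0.70) and Csf1r (-0.43), which was lost with the trend removed. These are 10% in each direction, below the shares among all genes, and the count was again 2 and 2 with the trend removed. Lyz2 overlapped between the ages and was called in 2 of the 6 fits without 1 knockout library. Cx3cr1 was at 7.87, 6.59 and 7.50 CPM at P28 and at 4.00, 4.33 and 4.03 CPM at 12 months. Its wild-type change was 0.35, and it was the 1 member whose difference between genotypes was called (limma adjusted p = 0.048). In wild type 4 of the 20 markers rose and 0 fell. The summed level of 25 markers was 110, 116 and 116 CPM at P28 and 108, 148 and 109 CPM at 12 months. In whole tissue, here and below, fewer cells of a type and less RNA per cell cannot be told apart. Among 19 tested complement genes 1 was called, against 27.2% of all genes. This gene, Cd59a, which protects cells from the membrane attack complex, rose from 22.9, 34.8 and 24.6 CPM to 78.1, 98.0 and 72.5 CPM (1.57 ± 0.16, limma adjusted p = 6.0e-05). With the trend removed 3 complement genes rose and 2 fell.

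All 13 protein-coding genes of the mitochondrial genome rose in knockout retina. They encode subunits of respiratory complexes I, III and IV and of ATP synthase. Their share of the summed signal was 6.12%, 4.43% and 6.80% in the P28 knockout libraries and 10.1%, 12.2% and 9.63% at 12 months (mean 5.79 ± 1.22% and 10.6 ± 1.38%, SD, n = 3 each; p = 0.1 by a two-sided exact permutation test, which cannot go lower with 3 against 3). Neither age overlapped the other. In wild type the share was 9.08%, 7.16% and 8.94% at P28 and 7.57%, 8.04% and 7.11% at 12 months (exact permutation p = 0.3). The low values were those of the P28 knockout libraries and the high ones those of the 12-month knockout.

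The median log2 fold change of the 13 mitochondrial genes was 1.13, or 0.71 with the trend removed, when all 13 were still called, and 11 were called with the sex term. Their median GC content was 37.1%, in the range where genes as a whole rose. mt-Nd3 (ENSMUSG00000064360), a small subunit of complex I, went from 323, 443 and 430 CPM to 1844, 2256 and 1388 CPM. mt-Nd2 went from 3140, 2538 and 3705 CPM to 6607, 8897 and 5659 CPM (1.16 ± 0.18, limma adjusted p = 0.00099). mt-Nd3 and mt-Nd2 were the 2 members whose age change was called as different from wild type. Of 48 tested respiratory chain genes of the nucleus 5 rose and 6 fell, shares below those among all genes, or 3 and 4 with the trend removed and 1 and 4 with the sex term. The succinate dehydrogenase gene Sdha (0.56) was among the rises.

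**Figure D2:**
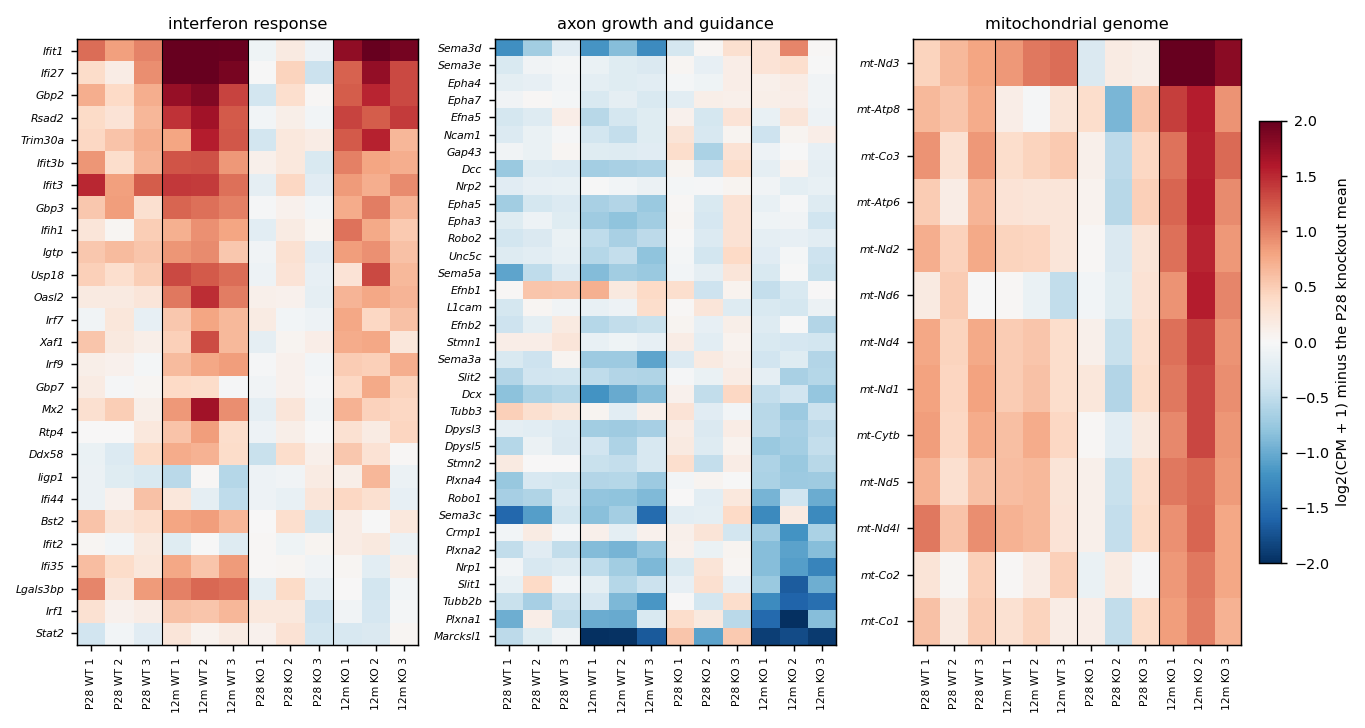
Each row is a tested gene of 3 lists, with 1 interferon list member not shown, and each column a library. Colour gives log2(CPM + 1) minus the mean of the 3 P28 knockout libraries, from -2 (blue) to 2 (red). Wild-type columns too are set against P28 knockout, so their colour is not an age change within wild type. Ifit1 and other interferon genes are red at 12 months in both genotypes, most axon genes are blue at 12 months, and the mitochondrial genes are darkest in the 12-month knockout columns.

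Among genes for growing and guiding axons there were falls and no rises. Their products steer growth cones and build the microtubules of young neurites. Of 35 tested 15 fell and 0 rose (median -0.34), with 14 falls after the trend was removed and 14 with the sex term. Plxna2, a semaphorin receptor gene, was at 227, 196 and 222 CPM at P28 and at 118, 101.6 and 118 CPM at 12 months (-0.93 ± 0.10, limma adjusted p = 7.9e-05). Tubb2b, a neuronal beta-tubulin gene, went from 8.43, 6.28 and 11.04 CPM to 2.94, 2.10 and 2.29 CPM. Nrp1, a co-receptor for semaphorins and VEGF, went from 9.42, 14.3 and 12.2 CPM to 6.10, 4.98 and 4.16 CPM. None of these 3 overlapped between the ages. Other falls were in the receptor genes Plxna1 (-1.75), Robo1 (-0.78) and Plxna4 (-0.69) and in the guidance ligand genes Slit1 (-1.13) and Slit2 (-0.46).

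Markers of retinal ganglion cells, the neurons whose axons form the optic nerve, had 7 falls and 0 rises among 19 tested, against 13.9% falls among all genes. The count was the same after trend removal and with the sex term. Nefh, the heavy neurofilament gene, went from 86.3, 60.7 and 74.9 CPM to 38.1, 32.2 and 44.5 CPM (-0.93 ± 0.13, limma adjusted p = 0.00057). The medium neurofilament gene Nefm (-0.87), Sncg (-0.98), Thy1 (-0.72) and the nicotinic receptor gene Chrna6 (-0.42) fell as well. The 20 markers summed to 1583, 1054 and 1637 CPM at P28 and to 1198, 1216 and 1128 CPM at 12 months (exact permutation p = 0.4), so that P28 library 2 lay below the old libraries. In wild type they summed to 1341, 1397 and 1481 CPM and then to 1041, 1045 and 1118 CPM, without overlap (exact permutation p = 0.1). There 1 of the 19 fell and 0 rose, and the median log2 fold change was -0.37, against -0.16 in knockout.

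Receptors for GABA, glycine and glutamate showed 10 falls and 0 rises among 40 tested genes. Their called share was below the 27.2% of all genes, of which 13.9% fell. With the trend removed the count was again 10 and 0, when 21.2% of all genes were called, and with the sex term it was 7 and 0. Grin1, the obligatory NMDA receptor subunit gene, went from 19.3, 26.9 and 18.6 CPM to 12.3, 9.71 and 12.8 CPM (-0.83 ± 0.16, limma adjusted p = 0.0039). Gabrb2 (-0.67), Grin2b (-0.61), Grm3 (-1.07) and Glra1 (-0.99) were further falls. Of 39 tested genes of synaptic vesicles and ribbon synapses 14 fell and 3 rose, or 9 and 2 with the trend removed. Cabp4, which tunes the calcium channel of photoreceptor terminals, rose from 70.9, 66.4 and 69.3 CPM to 105.1, 91.0 and 93.1 CPM.

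Cone and rod photoreceptors were read by the genes of their light response. Of 16 tested cone phototransduction genes 5 fell and 0 rose, and with the trend removed 5 fell as well, though not the same 5. Opn1mw, the green cone opsin gene, was at 144, 143 and 125 CPM at P28 and at 92.7, 85.4 and 73.9 CPM at 12 months (-0.71 ± 0.11, limma adjusted p = 0.00089). Pde6c, the catalytic subunit of the cone phosphodiesterase, went from 161, 154 and 160 CPM to 125, 123 and 114 CPM. Gngt2 (-0.73), Gnb3 (-0.65) and Cnga3 (-0.53) were the other cone genes that fell, the last 2 of which were not called with the trend removed. With the sex term 3 cone genes fell, and without P28 knockout library 2 the list had 5 falls and 2 rises.

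Of 28 tested rod genes 5 rose and 2 fell, or 6 and 2 with the trend removed, against 13.3% and 13.9% among all genes. Pde6a, the rod phosphodiesterase subunit, went from 1743, 1648 and 1662 CPM to 2282, 2348 and 2394 CPM (0.48 ± 0.09, limma adjusted p = 0.0027). Rgs9bp (0.50), Gngt1 (0.46), Grk1 (0.35) and Gucy2e (0.29), which serve in the cascade and its shut-off, were the other rises. The retinol dehydrogenase gene Rdh12 (-0.59) and recoverin, Rcvrn (-0.46), fell. Summed over the list, the rod signal was 45810, 48940 and 42310 CPM at P28 and 51050, 42500 and 50390 CPM at 12 months, which overlapped.

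Among 41 tested genes of the outer segment and the photoreceptor cilium 12 fell and 4 rose, or 7 and 3 with the trend removed and 6 and 1 with the sex term. Myo7a, the unconventional myosin of Usher syndrome type 1, fell from 25.9, 18.8 and 20.4 CPM to 7.19, 6.69 and 7.92 CPM (-1.45 ± 0.14, limma adjusted p = 3.5e-05). Rpgrip1, a scaffold of the connecting cilium, went from 2400, 1679 and 2099 CPM to 1280, 1333 and 1360 CPM (-0.62 ± 0.13, limma adjusted p = 0.0056). Nphp4 (-1.47) and the transport motor gene Kif3a (-0.55) fell, and the Bardet-Biedl gene Bbs4 (0.36) rose. Of 19 tested bipolar cell markers 4 fell, among them Lrit3, Grm6 and Gpr179, a called share below the 27.2% of all genes. Of these 4 markers 3 were not called with the trend removed, when the list had 2 falls. Of 24 Müller glia markers 3 rose, near the share among all genes, and 0 fell, also with the trend removed: the water channel gene Aqp4 (0.75), Dkk3 (0.33) and Car2 (0.30). Dkk3 and Car2 were each called in 2 of the 6 fits without 1 knockout library, and neither was called with the sex term, when the list had 1 rise and 1 fall. Without P28 knockout library 2 it had 2 rises and 5 falls.

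Vascular markers had falls and no rises in knockout retina. Of 20 tested endothelial and pericyte markers 12 fell and 0 rose (median -0.61), which became 8 falls and 2 rises with the trend removed and 8 falls with the sex term. Cdh5, the cadherin of endothelial junctions, was at 4.32, 3.09 and 4.37 CPM at P28 and at 1.47, 1.83 and 1.91 CPM at 12 months (-0.84 ± 0.15, limma adjusted p = 0.0025). Tek, the angiopoietin receptor gene, went from 10.6, 7.15 and 9.48 CPM to 5.13, 5.73 and 4.87 CPM. The tight junction gene Cldn5 (-0.83) and Mfsd2a (-0.88), a lipid transporter of the blood-retina barrier, fell too but were not called with the trend removed. The 21 markers summed to 732, 711 and 732 CPM at P28 and to 632, 558 and 625 CPM at 12 months, with no overlap. In wild type the sums were 771, 751 and 773 CPM at P28 and 806, 728 and 751 CPM at 12 months, and 1 marker rose and 1 fell. In 0 of the 20 markers was the difference between genotypes called.

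Matrix genes had more falls than rises among their calls, and most were not called. Of 28 tested collagen genes 10 fell and 2 rose, or 4 and 2 with the trend removed. The rises were Col4a3 (15.1, 60.6 and 16.2 CPM, then 162, 275 and 189 CPM) and Col4a4 (1.70), partner chains of type IV collagen that lie head to head in the genome. Col23a1, a transmembrane collagen gene, fell from 88.9, 69.3 and 72.8 CPM to 36.1, 34.8 and 42.1 CPM (-1.01 ± 0.11, limma adjusted p = 9.3e-05). Among 35 tested matrix genes other than collagens 13 fell and 1 rose, or 6 and 2 with the trend removed, when 9.73% of all genes fell. The serine protease gene Htra1 fell from 50.9, 50.5 and 38.1 CPM to 17.8, 15.8 and 22.5 CPM, and the laminin genes Lama4 (-1.19) and Lamb1 (-0.89) fell. Efemp1, which encodes fibulin-3, rose from 48.0, 52.1 and 53.7 CPM to 81.5, 124 and 91.2 CPM (0.91 ± 0.17, limma adjusted p = 0.0033).

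Markers of tissue next to the retina were counted beside these. The 15 fibroblast and scleral markers summed to 200, 151 and 176 CPM at P28 and to 99.1, 108 and 126 CPM at 12 months (exact permutation p = 0.1), and 5 of 11 tested fell and 1 rose, or 3 and 0 with the trend removed. The 25 pigment epithelium markers summed to 780, 638 and 866 CPM and then to 539, 656 and 587 CPM, which overlapped, and 3 of 21 tested fell, or 2 with the trend removed and 6 without P28 knockout library 2. Of 7 tested astrocyte markers 3 fell: Pdgfra (-1.23), Igfbp3 (-1.32) and Gfap (-0.91). With the trend removed 1 was called, Pdgfra, and with the sex term 2, without Gfap (limma adjusted p = 0.072). Igfbp3 overlapped between the ages, and Gfap was called in 3 of the 6 fits without 1 knockout library. The part of adjacent tissue in the fall of matrix genes was not tested.

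Chaperones of the endoplasmic reticulum mostly had falls among their calls, and those of the cytosol mostly rises. Of 24 tested genes of the unfolded protein response 8 fell and 2 rose, or 10 and 1 with the trend removed. Calr, which encodes the calcium-binding chaperone calreticulin, went from 465, 282 and 372 CPM to 207, 178 and 214 CPM (-0.87 ± 0.15, limma adjusted p = 0.0018). Xbp1, the transcription factor of this response, went from 116, 94.8 and 108 CPM to 78.7, 61.6 and 71.1 CPM. Hyou1, Creld2, Dnajb11, Pdia4, Pdia6 and Manf fell by 0.45 to 0.68. In wild type 0 of the 24 were called, but in 0 of them was the difference in age change between genotypes called.

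Of 25 tested heat shock genes 8 rose and 2 fell, or 7 and 0 with the trend removed. Hspa1b and Hspa1a, near-identical inducible Hsp70 genes, rose by 1.38 and 0.87. Hspa1b was at 7.44, 6.89 and 11.8 CPM at P28 and at 26.3, 25.6 and 19.5 CPM at 12 months. Hspa2, another Hsp70 gene, rose by 1.45 and Hspd1, the mitochondrial chaperonin, by 0.28. Immediate early genes, induced within minutes by neuronal activity, showed 6 rises and 0 falls among 28 tested, or 4 and 0 with the sex term. The 6 calls were a share below the 27.2% called among all genes, of which 13.3% rose. With the trend removed 11 rose, when 11.5% of all genes did. Homer1 went from 49.6, 66.0 and 67.1 CPM to 115, 112 and 99.6 CPM (0.84 ± 0.11, limma adjusted p = 0.00038), and Nr4a3 (1.06), Atf3 (0.89), Egr3 (0.77), Bdnf (0.68) and Dusp1 (0.44) were the others. Promoters of the heat shock and immediate early genes were also searched, in the same 250-base window as those of the interferon genes. The heat shock element was present in 0.466% of 32851 promoters. It was in 2 of the 19 tested heat shock genes with a promoter there and in 1 of the 7 risen ones, Hspd1. The element named CRE was present in 1.55% of promoters. It was in 2 of the 23 tested immediate early genes with a promoter there and in 1 of the 5 risen ones, Dusp1. The hour of collection is not given in the sources used here. Of 22 tested clock genes 4 rose, including Nr1d2 (0.59) and Cry1 (0.57), and 3 fell, including the clock output gene Dbp (-0.80), or 6 and 3 with the trend removed.

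Among genes of glucose use the calls were mostly falls. Of 28 tested glycolytic genes 8 fell and 3 rose, or 6 and 3 with the trend removed. Hk2 (ENSMUSG00000000628, chromosome 6, 82725025 to 82774454), a hexokinase abundant in photoreceptors, went the other way, from 146, 184 and 123 CPM to 330, 416 and 388 CPM (1.33 ± 0.14, limma adjusted p = 7.9e-05). Its wild-type change was 0.09 and the difference between genotypes was called (limma adjusted p = 0.041). Pdk1 (-0.63) and Pdk2 (-0.97), which hold pyruvate back from the mitochondria, the glucose transporter gene Slc2a1 (-0.74) and the lactate dehydrogenase gene Ldha (-0.54) fell. Pdk1 was at 92.3, 108 and 103 CPM at P28 and at 63.7, 68.4 and 62.0 CPM at 12 months.

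Of 36 tested lysosome and autophagy genes 13 fell and 4 rose, or 9 and 5 with the trend removed, 7 and 2 with the sex term and 8 and 4 without P28 knockout library 2. Npc1, the lysosomal cholesterol exporter, rose from 74.3, 66.5 and 71.1 CPM to 120, 118 and 120 CPM (0.75 ± 0.09, limma adjusted p = 0.00023). Ctsd, the protease cathepsin D, went from 110, 118 and 79.7 CPM to 62.5, 45.0 and 70.5 CPM. The autophagosome marker genes Map1lc3a (-1.14) and Map1lc3b (-0.59) fell. Of 28 tested cholesterol genes 7 were called, near the share among all genes, and 7 with the trend removed as well: 4 rose, Cyp51 (0.57), Msmo1 (0.55), Idi1 (0.45) and Hmgcs1 (0.30), and 3 fell, among them Dhcr7 (-0.94) and Mvk (-0.77).

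RNA-binding proteins that control splicing had more rises than falls among their calls. Of 49 tested 18 rose and 4 fell, or 13 and 6 with the trend removed, and 11 rose and 3 fell with the sex term. The median GC content of the list was 42.8%, again on the side where genes as a whole rose. Hnrnpa1 was at 325, 341 and 345 CPM at P28 and at 590, 622 and 577 CPM at 12 months. Hnrnpdl went from 278, 295 and 310 CPM to 544, 572 and 488 CPM, and Srsf3 from 344, 310 and 373 CPM to 558, 614 and 524 CPM. The 2 ages were far apart in each. Ptbp3 (0.95), Mbnl1 (0.72) and Srsf7 (0.58) rose too, while the neuronal regulators Rbfox2 (-0.64), Rbfox3 (-0.59), Nova2 (-0.49) and Msi1 (-0.75) fell. In wild type 0 of the 49 were called, and for Hnrnpa1, Hnrnpdl and Srsf3 the difference between genotypes was called.

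The study is set in age-related macular degeneration, so orthologs of its risk genes were read as a list. Of 28 tested 3 rose and 3 fell, near the share among all genes, or 3 and 6 with the trend removed. Abca1, the cholesterol exporter, rose from 73.8, 51.0 and 86.2 CPM to 130, 171 and 144 CPM (1.09 ± 0.17, limma adjusted p = 0.0011). Col4a3 and Rad51b (0.63) rose, and Htra1 (-1.27), Nploc4 (-0.61) and the angiogenic factor gene Vegfa (-0.42) fell. Of 5 tested genes for ligands and adaptors of the PILR receptors, Npdc1 (-0.62) and Cd99l2 (-0.40) fell, and with the trend removed 0 of the 5 were called (3456 of all genes, or 21.2%, were).

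**Figure D3:**
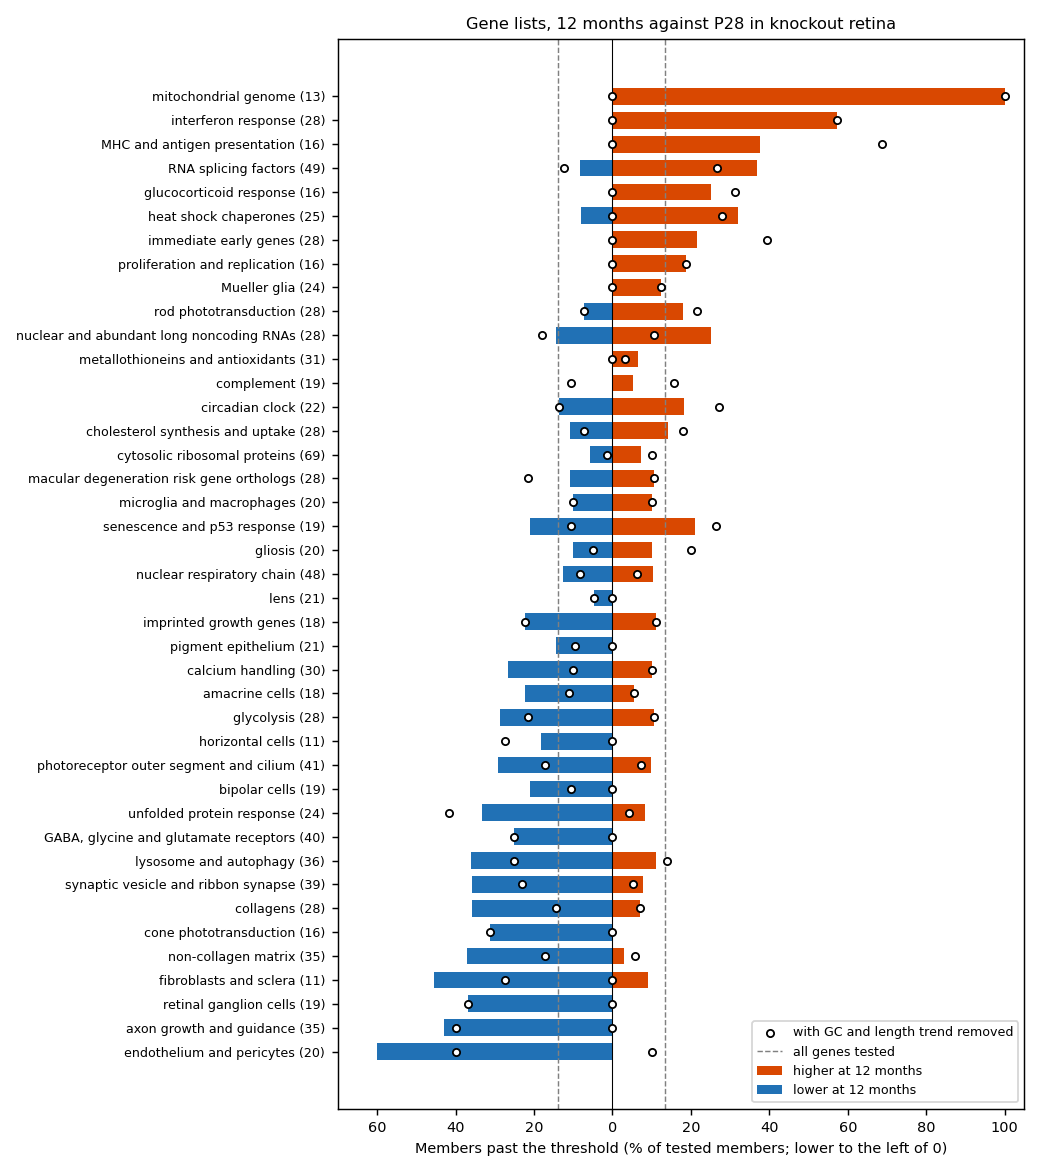
Share of the tested members of each list that rose (right) or fell (left) with age in knockout retina, with the number tested in brackets, for the lists with at least 10 tested members. Open circles give the shares with the GC and length trend removed, and dashed lines the shares among all genes tested, 13.3% higher and 13.9% lower. All 13 mitochondrial genes rose, and the endothelial list reaches furthest to the left with 12 of 20.

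Knockout and wild type were compared to see which of these changes differ between genotypes. By Xist, wild type had 0 female and 3 male libraries at P28 and 2 female and 1 male at 12 months. Sex thus moved with age in the opposite direction to knockout, so a difference between genotypes goes along with opposite shifts of sex. The part of sex in it was not tested beyond the sex term. In wild type 891 genes (5.40%) were called for age, 602 higher and 289 lower. The 606 genes called in both genotypes are 13.5% of the knockout calls and 68.0% of the wild-type calls, and 599 of them moved the same way. Of the wild-type calls 92.9% had the same sign in knockout, of the knockout calls 66.8% had the same sign in wild type, and of all genes 53.8%. On an axis drawn from the 891 wild-type genes, where 0 is the P28 and 1 the 12-month wild-type mean, the P28 knockout libraries lay at -0.031, 0.178 and -0.041 and the 12-month ones at 0.885, 0.889 and 0.903. Library 2 at P28 was thus the furthest of the young libraries along that axis. On an axis drawn for each knockout library from the other 5, over the genes called without it, the P28 libraries lay at -0.025, 0.1802 and 0.436, so that there library 3 was the furthest, and the 12-month ones at 0.882, 1.164 and 0.677.

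**Figure D4:**
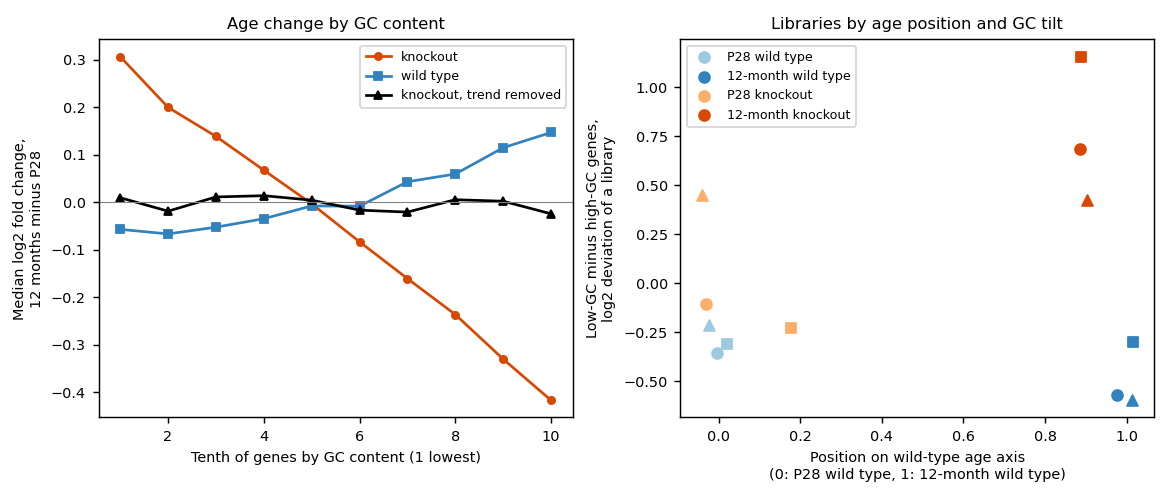
Left: median log2 fold change from P28 to 12 months in 10 equal groups of genes by GC content, in knockout, in wild type and in knockout with the trend removed. It falls from 0.31 to -0.42 in knockout and rises from -0.06 to 0.15 in wild type. Right: each library by its place on the wild-type age axis and by how far its low-GC genes exceed its high-GC genes (log2), with shapes for library numbers. The 12-month knockout libraries have the values 0.684, 1.16 and 0.423, and P28 knockout library 3 has 0.449.

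The difference of the age change between genotypes was called in 29 genes (0.176%), 13 with a higher and 16 with a lower change in knockout. This count depended on the settings: it was 2 with the trend removed and 0 with the sex term. It was 235 without P28 knockout library 2, 802 without 12-month knockout library 3 and 2501 without P28 knockout library 3. Without any 1 of the other libraries it was 1 or 2. Pds5a (ENSMUSG00000029202, chromosome 5, 65605721 to 65698273), a regulator of cohesin, had the smallest p. It was at 181, 168 and 210 CPM at P28 and at 207, 218 and 196 CPM at 12 months in knockout, which overlapped, whereas in wild type it fell from 351, 397 and 375 CPM to 142, 158 and 141 CPM. The difference was 1.503 ± 0.13 (limma adjusted p = 0.00096).

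Among the other genes with a called difference, Hmgb2, a chromatin protein gene, went from 18.6, 23.4 and 21.7 CPM to 47.2, 56.5 and 49.5 CPM in knockout and from 33.8, 34.5 and 33.9 CPM to 37.8, 42.1 and 38.6 CPM in wild type. Stk17b, a kinase gene, went from 23.5, 25.3 and 28.6 CPM to 67.4, 64.5 and 56.9 CPM in knockout, with a change of 0.30 in wild type. Lrp2, the endocytic receptor megalin, fell from 50.6, 61.9 and 57.6 CPM to 31.4, 28.9 and 34.1 CPM in knockout and was at 32.5, 31.1 and 25.6 CPM and then 40.0, 35.9 and 31.8 CPM in wild type. Map4k4, a stress kinase gene, fell by 0.76 in knockout, with a wild-type change of 0.19. In Hmgb2, Stk17b and Hnrnpa1 the P28 knockout libraries lay below all 6 wild-type libraries and the 12-month knockout libraries above all of them, whereas in Lrp2 the P28 knockout libraries lay above and the 12-month ones within the wild-type range.

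**Figure D5:**
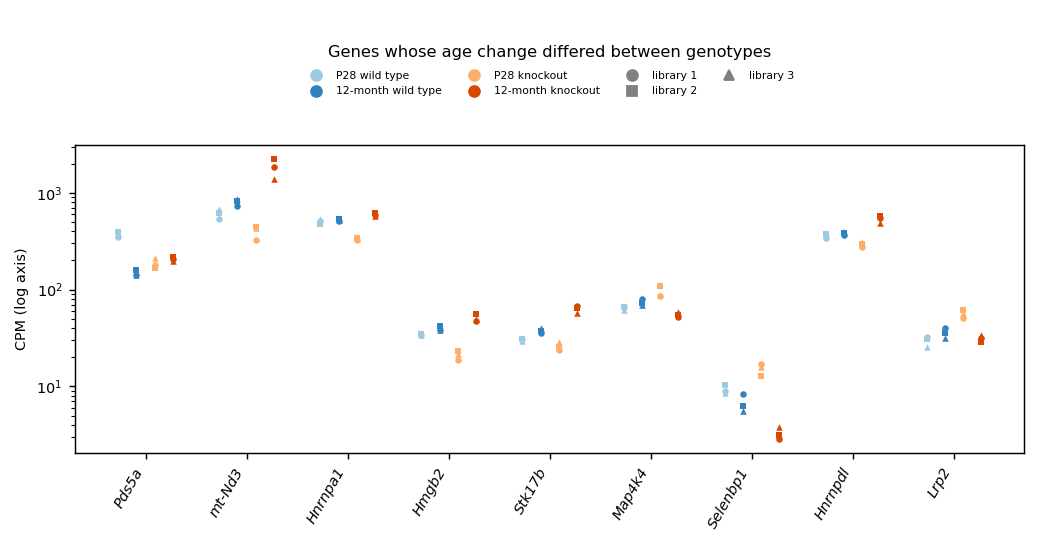
Level in CPM (log axis) in each library of 9 of the 10 genes with the smallest p for the difference in age change between genotypes (Acte1, listed at 0 in 9 of the 12 libraries, is left out). Pds5a falls in wild type and stays between 168 and 218 CPM in knockout, whereas mt-Nd3, Hnrnpa1, Hmgb2, Stk17b and Hnrnpdl rise in knockout.

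Transcripts were compared by their share of their gene's RPKM, a read density scaled to transcript length and library depth. Of 30475 transcripts tested 244 changed their share with age in knockout (0.801%), 94 upward and 150 downward, in 213 genes (limma on the log2 ratio of a transcript to the rest of its gene, adjusted p under 0.05). Fitted on the 6 knockout libraries alone the count was 4, and with the sex term it was 15. Retained-intron transcripts had 31 rises and 19 falls among 7705 tested, a called share below that of all transcripts. Together they held 9.89%, 11.8% and 9.64% of all RPKM in the P28 knockout libraries. At 12 months in knockout they held less, 8.84%, 8.40% and 9.45%, without overlap.

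Galntl6-209, a noncoding transcript of a gene of the GalNAc-transferase family, was listed at 0 in all 3 P28 knockout libraries and made up 32.3%, 45.1% and 57.0% of the gene's RPKM at 12 months, and in wild type its mean share likewise went from 0 to 56.5%. Slc17a5-201, a coding transcript of the sialic acid transporter gene, had a share of 58.5%, 34.4% and 42.3% at P28 and 0.036%, 0.118% and 0.422% at 12 months. Dedd2-203, with a retained intron, went from 11.02%, 8.04% and 11.4% to 48.1%, 48.8% and 51.3%. These 3 were also called with the sex term. Cep135-202, a coding transcript of a centriole gene, went from 31.5%, 18.4% and 31.6% to 78.4%, 83.8% and 68.8%, and its mean share in wild type was 36.2% and then 33.3%, but the difference between genotypes was not called (limma adjusted p = 0.13). Sri-201, a retained-intron transcript of the sorcin gene, had 39.2%, 53.4% and 27.8% at P28 and was listed at 0 in all 3 12-month knockout libraries, while its wild-type means were 35.7% and 42.6% (limma adjusted p = 0.0037 for the difference). Shares rest on the apportioning of reads among overlapping transcripts, and zeros there can be failed estimates.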

How the data were processed

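Poly(A) RNA of mouse retina was measured in 12 libraries, and the 6 knockout libraries carry the comparison. The authors used kallisto 0.45.0 with Ensembl 102, tximport 1.30.0 and edgeR 4.0.3, per the submitters' processing notes. The notes name a human build, but the identifiers are mouse. The gene values deposited by the authors are a signal, CPM on TMM-scaled libraries, and the deposited transcript values are RPKM. Only 11.0 to 28.4% of low gene values were whole reads within 0.01 read, so no count model was used.

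The test was limma 3.58.1 on log2(CPM + 1) (R 4.3.3, eBayes with trend, 4 group means, 12 libraries, Benjamini-Hochberg at 0.05). The gene fit of the age change in knockout and the trend removal were tested on simulated data with noise independent between genes. The transcript fit, the sex term and the difference between genotypes were not tested in this way. Transcript ratios used a pseudocount of 0.1 and an RPKM of at least 1. GC and length (GENCODE M21, 98.7% of tested genes) were removed by splines of 5 degrees of freedom. Positions are GRCm38. The most common of a library's low values was taken as 1 read and gave its depth. Sex was read from Xist at 100 CPM, and Y-linked genes were not used in the call.

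The members and the 48 gene lists were chosen with earlier results of these data known. Named were the 15 largest rises and 15 largest falls with separate libraries (without predicted, clone, pseudogene, Xist or Y-linked names), up to 5 members a list by smallest p, plus members that make a count clear, 10 genes of the difference between genotypes and 10 transcripts by change of share. Other members named in the text were picked after their values were seen. Alternatives are given at the end. Summaries and plots used scipy 1.17.1, pandas 2.3.3, matplotlib 3.10.9 and numpy 2.4.6 in Python 3.11.15. Values of some list members are not reported here, though counts over lists include them. Raw reads were not analysed here.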

Additional observations from a re-analysis of the deposited data

Results flagged for a closer look

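The age change was called as different between knockout and wild type in 10 named genes, each by a limma test of the difference itself (adjusted over all genes). The adjusted p was 0.00096 for Pds5a, 0.024 for mt-Nd3 and for Hnrnpa1, 0.033 for Hmgb2 and for Acte1, 0.034 for Stk17b, 0.037 for Map4k4 and for Selenbp1, and 0.041 for Hnrnpdl and for Lrp2. The change was larger upward in knockout in Pds5a (1.503), mt-Nd3 (1.80), Hnrnpa1 (0.78), Hmgb2 (1.02), Stk17b (0.96) and Hnrnpdl (0.79), and lower in Map4k4 (-0.95), Selenbp1 (-1.497) and Lrp2 (-1.09), on the log2 scale. Acte1 was listed at 0 in all 6 knockout and all 3 P28 wild-type libraries and at 1.04, 1.77 and 1.74 CPM at 12 months in wild type. The 4397 genes with an unadjusted p under 0.05 for the difference were far more than the 29 that passed the adjustment. The count of 29 became 2 with the trend removed and 0 with the sex term. Sex, as read from Xist, moved with age in opposite directions in knockout and wild type.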

How the results depend on the processing

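Counts are given as genes higher, genes lower and genes with a called difference between genotypes, against 2198, 2285 and 29. Array weights gave 3917, 4399 and 5234, and the knockout libraries alone gave 836 higher and 733 lower. Male libraries only gave 1129, 969 and 3. The sex term gave 0 differences, and with the trend removed as well the counts were 1068, 885 and 1. The difference count was 5 with no filter, 14 with summed transcript RPKM, 2 with the trend removed, 263 when P28 knockout library 2 was also left out (chosen after seeing the data) and 1656 at an adjusted p under 0.10. Leaving out each of the 12 libraries gave 1295 to 2680, 1173 to 2859 and 1 to 2501. The lowest gene counts came without 12-month knockout library 2, and the highest without P28 knockout library 3. Changed transcript shares (244) were 4 in knockout libraries alone, 15 with the sex term, 1030 at an adjusted p under 0.10 and 55 to 447 without 1 library. The cause of these shifts was not tested, apart from fewer samples in the smaller fits.

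The labels share replicate numbers between groups, but same-numbered knockout libraries did not deviate together (correlations 0.0216, -0.0644 and -0.330), and 5 of the 6 correlated better with another number. A replicate block gave 1879, 1948 and 4 genes and 85 transcripts, and 1669, 1385 and 1 genes with the trend removed.

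No age change called in knockout, and no called difference between genotypes, turned direction among the named genes under the alternatives run. The uncalled age change of Pds5a in knockout went from 0.16 to -0.12 with the trend removed. Over all settings 5568 results of named genes kept their call and 557 lost it, and for the 10 genes of the difference 145 kept it and 143 lost it. Of the list medians 1310 moved by less than the spread between libraries and 129 by more. Depth limits genes near 3 reads, such as Crygb at 12 months and Pilra.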

Other observations

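Further lists added the following in knockout retina, where 13.3% of all genes rose and 13.9% fell, or 11.5% and 9.73% with the trend removed. Of 16 tested proliferation genes 3 rose, Ccna2 (0.79), Pcna (0.45) and Rrm1 (0.35), and 0 fell, again 3 and 0 with the trend removed and 6 and 0 without P28 knockout library 2. Pcna, the sliding clamp of DNA replication, was at 71.3, 71.2 and 78.6 CPM at P28 and at 111, 97.5 and 94.5 CPM at 12 months. Of 28 tested long noncoding RNAs 7 rose and 4 fell, which turned to 3 and 5 with the trend removed and was 4 and 4 with the sex term. Miat went from 61.8, 55.1 and 51.7 CPM to 25.5, 19.9 and 30.5 CPM (-1.14 ± 0.19, limma adjusted p = 0.0017), and Meg3, from an imprinted locus, from 1809, 1604 and 1661 CPM to 1081, 820 and 1198 CPM. Of 18 imprinted growth genes 2 rose, Zim1 (0.88) and Grb10 (0.58), and 4 fell, again 2 and 4 with the trend removed. Among 19 senescence and p53 genes 4 rose, among them the cell cycle inhibitor gene Cdkn2c (1.21), and 4 fell, among them Gadd45a (-0.85) and Glb1 (-0.83), or 5 and 2 with the trend removed. Of 16 glucocorticoid response genes 4 rose and 0 fell (5 and 0 with the trend removed), with the receptor gene Nr3c1 at 107, 119 and 127 CPM and then at 183, 171 and 157 CPM.

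Calcium handling genes had 8 falls and 3 rises among 30 tested, or 3 and 3 with the trend removed and 4 and 2 with the sex term. The sodium-calcium exchanger gene Slc8a3 fell from 64.2, 71.2 and 65.7 CPM to 52.6, 44.9 and 51.3 CPM, and the calcium release channel gene Itpr2 rose from 10.8, 21.2 and 18.4 CPM to 29.3, 35.9 and 25.8 CPM. Of 20 gliosis genes 2 rose and 2 fell (4 and 1 with the trend removed), with Nes, an intermediate filament gene of reactive and immature glia, at 8.97, 7.08 and 9.71 CPM and then at 2.91, 3.04 and 3.18 CPM. Of 69 cytosolic ribosomal protein genes 5 rose and 4 fell, and of 31 metallothionein and antioxidant genes 2 rose and 0 fell, which are shares below those of all genes. With the trend removed these were 7 and 1, and 1 and 0. Of 18 amacrine markers 1 rose and 4 fell, or 1 and 2 with the trend removed, and of 11 horizontal cell markers 2 fell, or 3. Lymphocyte markers had 0 calls among 3 tested, lens 1 fall among 21, erythrocytes 2 falls among 7 and skeletal muscle 1 fall among 4, or 0, 1, 1 and 0 with the trend removed. The oligodendrocyte list had 1 rise among 8, the myelin lipid-binding gene Pmp2 (1.56), which was also called with the trend removed. The ciliary body list had 1 rise among 7, Dcn, which was lost with the trend removed (limma adjusted p = 0.062) and with the sex term (limma adjusted p = 0.066) and was called in 1 of the 6 fits without 1 knockout library.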
